A study of Mus musculus with 12 samples.

Results

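ACREB was compared with a control virus in mouse astrocyte cultures that received no vasoactive intestinal peptide (VIP), to describe the effect of 5 days of CREB inhibition at rest. The comparison took the 3 libraries of ACREB with PBS against the 3 libraries of control virus with PBS, paired by their replicate number, 6 of the 12 libraries of the series. The model was fitted to all 12, which share 1 estimate of the spread behind each p-value. Of the 55573 genes in the count table, the 16761 that passed an expression filter were tested. All groups came from the forebrains of C57BL6/J pups aged 0 to 2 postnatal days. Cells were grown to confluency, shaken to detach other glia and replated at 7 days in vitro, which gives cultures enriched in astrocytes but not free of other cells. Lentivirus was applied for 24 h in medium without serum, and the cells were then kept in serum-containing medium until 5 days after transduction. The control lentivirus, pCIG3, carries a CMV promoter followed by an internal ribosome entry site and GFP, and the other virus was pCIG3-ACREB. CMV is active in many cell types, so neither virus was restricted to astrocytes. Both groups received a PBS bath for 30 min and 90 min of recovery before lysis. The other 6 libraries had the same 2 viruses with 0.5 µM VIP in the bath. Whether libraries 1, 2 and 3 stem from different cultures, litters or animals is not stated in the labels. P-values therefore refer to the spread among these libraries, and that spread may be purely technical.

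CREB is a transcription factor that binds the cAMP response element (CRE), with the sequence TGACGTCA, as a dimer joined through a leucine zipper. Kinases downstream of cAMP and calcium phosphorylate it, which recruits coactivators to its target genes, among them immediate-early genes and metabolic regulators. ACREB keeps the leucine zipper but carries an acidic stretch in place of the DNA-binding region, so that its dimers with CREB cannot hold DNA. In astrocytes, CREB is known for responses to noradrenaline, VIP and other signals that raise cAMP, such as the building of glycogen stores.

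The 6 libraries held 16571398 to 19236341 counts each. Control library 2 stood apart from the others, judged by its deviation from each gene's median over all 12 libraries. GC content and length of genes accounted for 49.5% of the variance of that deviation across genes. The share was 30.3% for ACREB library 2 and 1.12% to 8.63% for the other 4. Astrocyte markers summed to 16742 ± 901.1 CPM (counts scaled to library size) with control virus and 16906 ± 1327 with ACREB (SD, n = 3). Without Apoe, which microglia also express, the sums were 12155, 12668 and 11225 CPM with control virus and 12050, 11565 and 10989 with ACREB, lower in each pair. Gfap, the intermediate filament of astrocytes, was at 1492, 1565 and 1108 CPM with control virus and 1349, 1201 and 1051 with ACREB, and Aqp4, the astrocyte water channel, was detected in all 6 libraries. The endothelial marker Cldn5 was at 0 in all 6, while Kdr, another endothelial marker, had a mean of 27.7 CPM with control virus and 27.6 with ACREB. Creb1, the gene for CREB, was at 67.2, 21.2 and 55.7 CPM with control virus and 104.1, 59.8 and 97.3 with ACREB, so the groups overlapped. Its log2 fold change was 0.91 (95% confidence interval 0.34 to 1.48) and did not pass (adjusted p = 0.21). ACREB contains part of the CREB sequence, and counts per gene cannot tell a transgene read from one of Creb1, so this value is no check of inhibition.

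ACREB was followed by few changes at rest. In all, 14 genes rose and 23 fell at an adjusted p under 0.05 (edgeR's quasi-likelihood test, p-values adjusted by Benjamini-Hochberg), which is 0.0835% and 0.137% of the genes tested. The largest falls were in H2-Q6 and H2-Q7, genes for major histocompatibility complex (MHC) class I proteins, and in the chromatin gene Mbd6. The rises were led by Cd74 and included the nuclear RNA Neat1 and the matrix gene Fbn1. Absolute log2 fold changes of the 37 genes ran from 0.43 to 2.64 with a median of 0.90, and 7 rises and 6 falls reached 1. The 2 groups of libraries did not overlap for 36 of the 37 genes, where 8.78% of all genes tested did not overlap (4.34% with the ACREB libraries higher and 4.44% with them lower), and all 37 moved the same way in each of the 3 pairs. Because the 37 genes were picked by a test on these same pairs, this agreement is no separate support. Median log2 fold change over all genes was 0.01.

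The counts depended on single libraries more than the fold changes did. Without control library 3, or without any 1 of the 3 ACREB libraries, 0 genes rose and 0 fell in edgeR's test, with 1068 to 2351 genes at an unadjusted p under 0.05. Without control library 1 the counts were 0 and 13, and without the outlying control library 2 they were 24 and 35. Without the replicate pairs in the model, 1 gene rose and 5 fell. With the 6 PBS libraries alone in the model 11 rose and 14 fell, and 21 of the 37 genes passed. With offsets that take out each library's trend with GC content and length, 114 rose and 167 fell (0.68% and 0.997% of 16753 genes). DESeq2 with the pairs called 106 and 147, together 1.51% of 16761 genes. All 37 genes kept their direction in every one of these fits, all 37 passed with the offsets and with DESeq2, and all 37 had an unadjusted p under 0.05 in each fit with the pairs. With all libraries, 10.8% of the genes tested had such a p. The fits above reuse the libraries by which the 37 genes were picked, so their agreement is no separate support.

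**Figure D1:**
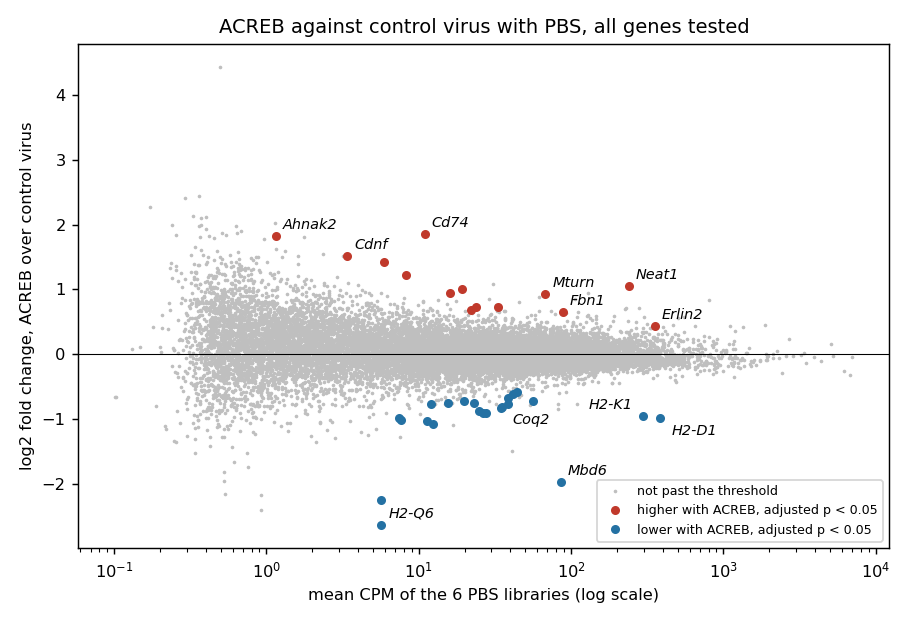
Log2 fold change of ACREB over control virus in PBS (vertical axis) against the mean CPM of the 6 PBS libraries (horizontal axis, log scale), 1 point for each of the 16761 genes tested. The 14 genes that rose and the 23 that fell are coloured; the falls reach -2.64 at H2-Q6 and the rises 1.85 at Cd74.

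Genes for MHC class I heavy chains, which present peptides at the cell surface to T cells, made up 5 of the 23 falls. H2-K1 (chr17:33996017-34000347) was at 249.8, 504.7 and 426.2 CPM with control virus and 181.7, 196.3 and 212.0 with ACREB. H2-D1 (chr17:35262730-35267499) was at 310.3, 689.6 and 561.2 CPM against 215.1, 272.4 and 265.3. For both of these classical class I genes the lowest control library, number 1, lay above the highest ACREB library. The highest control value of both was in the outlying library 2. The log2 fold change was -0.95 ± 0.15 (SE) for H2-K1 (adjusted p = 0.037) and -0.99 ± 0.16 for H2-D1 (adjusted p = 0.035).

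The 3 other class I genes that fell are nonclassical, which means that they vary less between strains. H2-Q6 was at 3.53, 14.1 and 12.2 CPM with control virus and 1.64, 0.907 and 1.76 with ACREB. H2-Q7, known as Qa-2, was at 4.36, 13.8 and 10.1 CPM against 1.58, 2.00 and 2.05. H2-T23, known as Qa-1 and a ligand of inhibitory receptors on natural killer cells, was at 25.8, 43.8 and 33.6 CPM against 14.7, 21.7 and 18.4. The groups were apart for all 3 genes. For each, control library 1 was the lowest of its group and the outlying control library 2 the highest. Log2 fold changes were -2.64 ± 0.42 (SE) for H2-Q6, -2.26 ± 0.36 for H2-Q7 and -0.90 ± 0.14 for H2-T23, each with an adjusted p of 0.035.

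Over all 19 H2 genes tested, 5 fell and 0 rose, where 0.137% of all genes fell. Of the 19, 12 had a negative fold change, and the median log2 fold change was -0.59. For 10 of the 19 the libraries did not overlap with ACREB lower (4.44% of all genes tested). With the GC and length offsets, where 0.997% of all genes fell, 8 fell, the additional ones being H2-Q4, H2-Q5 and H2-T22. H2-Q4 was at 76.4, 132.4 and 104.1 CPM with control virus and 58.5, 63.5 and 57.5 with ACREB, with a log2 fold change of -0.77 (adjusted p = 0.064, or 0.012 with the offsets). H2-Q5, a polymorphic pseudogene, had -2.41 (adjusted p = 0.053). Outside class II, H2-T24 and the pseudogene H2-K2 had positive log2 fold changes, 0.39 (adjusted p = 0.66) and 0.17 (adjusted p = 0.90). MHC class II genes lay on the other side or near 0: H2-Ob had a log2 fold change of 1.12 (adjusted p = 0.14), H2-Ab1 0.53 (0.58), H2-Oa 0.63 (0.54), H2-DMb2 0.18 (0.80), H2-DMa 0.09 (0.76) and H2-DMb1 -0.08 (0.89). Reads from near-identical H2 copies can be shared or dropped by the counter, so the split between single H2-K, H2-D, H2-Q and H2-T genes is uncertain. The wider list of class I and antigen-processing genes held 3 falls and 0 rises among 22 tested, with a median log2 fold change of -0.15. These 3 are H2-K1, H2-D1 and H2-T23, already counted above, and 0.137% of all genes fell. With the offsets, where 0.997% of all genes fell, it held 6 falls, B2m, the class I light chain, among them.

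**Figure D2:**
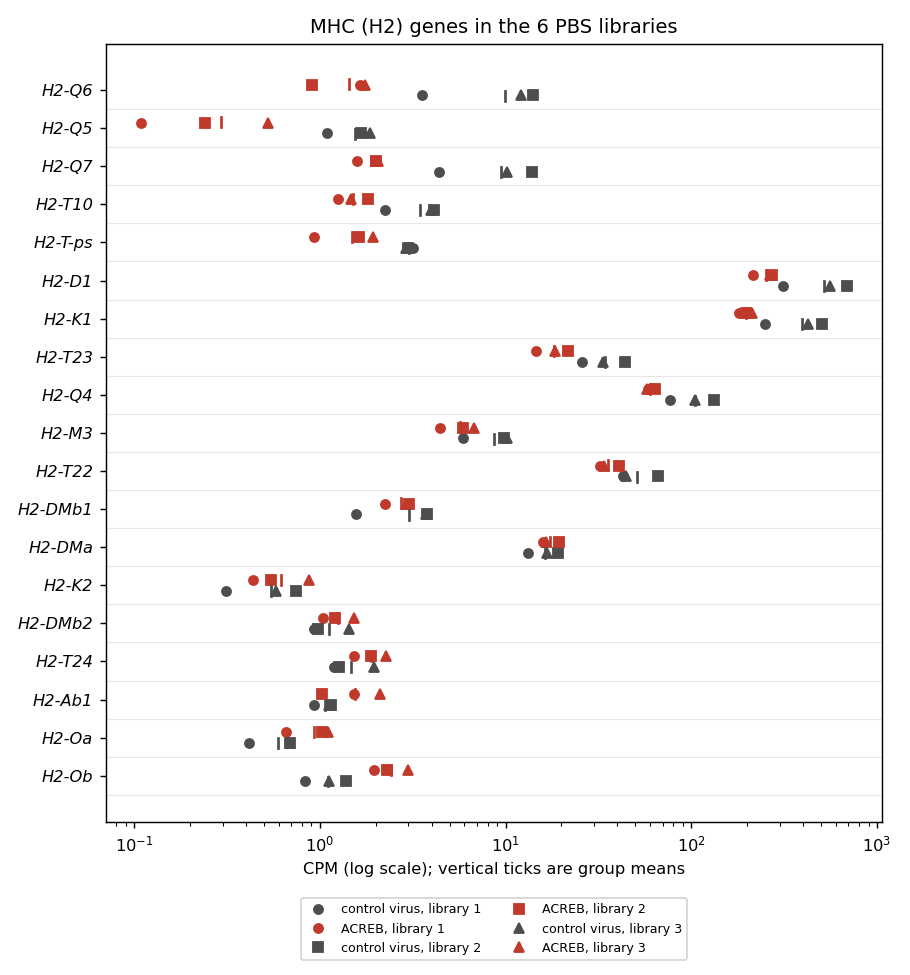
CPM (log scale) of the 19 H2 genes tested in each of the 6 PBS libraries, ordered by log2 fold change, with group means as vertical ticks and a symbol shape for each replicate number. The class I genes H2-Q6, H2-Q7, H2-D1, H2-K1 and H2-T23 have all ACREB libraries below all control libraries, and H2-Ob has them above.

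Mbd6 had the smallest p of all genes tested. It encodes a methyl-CpG-binding domain protein of the complex that removes ubiquitin from histone H2A. At chr10:127281956-127289018, Mbd6 was at 92.9, 152.4 and 163.8 CPM with control virus and 35.1, 28.2 and 40.8 with ACREB. The highest ACREB library lay well below the lowest control library. The log2 fold change was -1.98 ± 0.21 (SE), a 3.94-fold fall (adjusted p = 0.012). Among 24 genes for methyl-CpG-binding proteins and their partners tested, Mbd6 was the 1 that fell and 0 rose, where 0.137% of all genes fell. The list's median log2 fold change was 0.10.

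Coq2, which joins the ring and the tail of coenzyme Q, was at 43.5, 50.3 and 39.5 CPM with control virus and 27.5, 23.3 and 24.4 with ACREB. The groups did not overlap, and the log2 fold change was -0.83 ± 0.11 (SE; adjusted p = 0.019). Coq2 was the 1 gene to fall among 14 genes of coenzyme Q synthesis, of which 0 rose, where 0.137% of all genes fell. Coq7, which acts later in the same pathway, had a log2 fold change of 0.65 (adjusted p = 0.064, or 0.0065 with the offsets). Mecr, an enzyme of mitochondrial fatty acid synthesis, was at 17.0, 23.7 and 18.3 CPM against 11.8, 11.9 and 11.2, and its log2 fold change was -0.75 (adjusted p = 0.047).

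Fahd2a, a member of the fumarylacetoacetate hydrolase family, was at 15.3, 19.4 and 15.9 CPM with control virus and 8.24, 7.92 and 7.67 with ACREB. Its 3 ACREB values were closely spaced and all below the control values, with a log2 fold change of -1.08 ± 0.14 (SE; adjusted p = 0.019). Nupl2, a nucleoporin gene, was at 9.04, 10.3 and 11.3 CPM against 4.31, 5.50 and 5.44, with a log2 fold change of -1.01 ± 0.15 (adjusted p = 0.035). Lrrc57, which encodes a protein of leucine-rich repeats, was at 34.4, 30.5 and 31.7 CPM against 19.9, 16.6 and 16.2. Neither gene overlapped between groups, and Lrrc57 had a log2 fold change of -0.88 ± 0.09 (adjusted p = 0.012). Exons of Lrrc57 overlap those of Haus2 on the other strand, and the counter's strand setting is not given in the sources used here, so its counts are uncertain.

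Col9a1, a chain of collagen IX, was at 9.35, 10.3 and 10.0 CPM with control virus and 3.87, 5.38 and 5.85 with ACREB, a log2 fold change of -0.98 ± 0.15 (SE; adjusted p = 0.035). Tubb4a, a beta-tubulin, was at 34.7, 44.8 and 29.0 CPM against 18.8, 18.6 and 20.5, a log2 fold change of -0.90 ± 0.15 (adjusted p = 0.0498). The libraries of both genes were apart by group. Apart from Helz2, described with the interferon genes, the falls not yet described had log2 fold changes of -0.82 to -0.59. They included Rtl6, a gene derived from a retrotransposon, Gpr89, a Golgi anion channel, Wdr61, a subunit of the PAF1 and SKI complexes, Scara3, a scavenger receptor, Nudt19, a peroxisomal hydrolase, Zhx2, a transcriptional repressor, Lmbr1 and Ccdc149. Gpr89, Wdr61 and Nudt19 overlap exons on the other strand and are uncertain in the same way.

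The rises were led by Cd74, the invariant chain that guides MHC class II proteins to peptides. Cd74 was at 2.75, 5.69 and 5.78 CPM with control virus and 12.3, 24.3 and 14.6 with ACREB. The groups did not overlap, and the log2 fold change was 1.85 ± 0.25 (SE; adjusted p = 0.019). Cst7, a cysteine protease inhibitor of immune cells, was at 9.04, 22.4 and 19.8 CPM against 15.4, 34.7 and 31.5, so its groups overlapped while each ACREB library was above its partner. Its log2 fold change was 0.69 ± 0.12 (adjusted p = 0.049).

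Cd74 and Cst7 are expressed in microglia among brain cells, and microglial markers lay higher in the same libraries. All 18 of 18 microglial markers tested had positive log2 fold changes, with a median of 0.40 against 0.01 for all genes, though 0 of 18 passed and 0 of 18 were apart by group. At an unadjusted p under 0.05, 15 of the 18 were higher, where 912 of all 16761 genes were. DESeq2, which called 1.51% of all genes in either direction, called 3 rises, Ctss, Cx3cr1 and Ly86. The summed level of all 18 markers was 1980, 2640 and 3836 CPM with control virus and 2584, 3791 and 4742 with ACREB. The ratio was 1.31, 1.44 and 1.24 in the 3 pairs. With the GC and length offsets, where 0.68% of all genes rose, 6 of the 18 rose: Ly86, Cx3cr1, P2ry12, Tyrobp, C1qa and C1qb. In bulk RNA, a different number of cells of a type and a different amount of RNA per cell cannot be told apart, and the part of microglia in the rises of Cd74 and Cst7 was not tested.

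Neat1, the long noncoding RNA that scaffolds nuclear paraspeckles, was at 173.4, 110.1 and 189.3 CPM with control virus and 261.2, 320.9 and 375.0 with ACREB (chr19:5824708-5845478). The groups were apart, with a log2 fold change of 1.05 ± 0.16 (SE; adjusted p = 0.035), and the lowest control value was in the outlying library 2. Fbn1, which encodes the microfibril protein fibrillin-1, was at 68.3, 75.7 and 61.0 CPM against 104.4, 126.7 and 92.1, a log2 fold change of 0.65 ± 0.08 (adjusted p = 0.019). Erlin2, a protein of the endoplasmic reticulum that takes part in degrading inositol trisphosphate receptors, was at 328.5, 305.0 and 271.8 CPM against 423.2, 444.3 and 354.8. The change in Erlin2 was the smallest of the 37 in size, with a log2 fold change of 0.43 ± 0.07 (adjusted p = 0.047).

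Mmab, which makes the active form of vitamin B12 in mitochondria, was at 22.1, 28.3 and 24.6 CPM with control virus and 38.8, 44.7 and 40.0 with ACREB. Glyctk, glycerate kinase, was at 4.26, 5.98 and 4.72 CPM against 10.96, 12.8 and 10.7. Libraries of both genes were tightly grouped and apart, with log2 fold changes of 0.72 ± 0.09 (SE) for Mmab and 1.21 ± 0.15 for Glyctk (adjusted p = 0.019 for each). Galnt15, a transferase that starts mucin-type O-glycans, was at 12.8, 8.45 and 11.6 CPM against 18.3, 17.1 and 28.3, with a log2 fold change of 0.94 ± 0.14 (adjusted p = 0.035).

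Mturn, a gene linked to neural differentiation, was at 50.2, 41.7 and 48.5 CPM with control virus and 83.6, 94.8 and 87.4 with ACREB. Zbtb21, a zinc-finger transcription factor, was at 17.8, 14.9 and 21.2 CPM against 29.8, 26.8 and 32.8. Both were apart by group, with log2 fold changes of 0.93 ± 0.12 (SE; adjusted p = 0.019) for Mturn and 0.73 ± 0.11 (adjusted p = 0.035) for Zbtb21. Cdnf, an endoplasmic reticulum protein with neurotrophic activity, was at 1.45, 2.36 and 1.49 CPM against 4.64, 5.81 and 4.57. Defb1, a beta-defensin, was at 3.79, 3.56 and 1.96 CPM against 10.5, 11.7 and 3.92, with library 3 lowest in both groups. Cdnf had a log2 fold change of 1.52 ± 0.24 (adjusted p = 0.037) and Defb1 of 1.43 ± 0.19 (adjusted p = 0.019). The last rises were Ahnak2, which encodes a large scaffold protein, at a log2 fold change of 1.83 (0.364, 0.690 and 0.478 CPM against 1.58, 2.00 and 1.81, adjusted p = 0.047), and the predicted gene Gm37305 at 1.00 (adjusted p = 0.035). Glyctk, Fbn1, Mturn and Gm37305 overlap exons on the other strand and are uncertain for that reason.

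**Figure D3:**
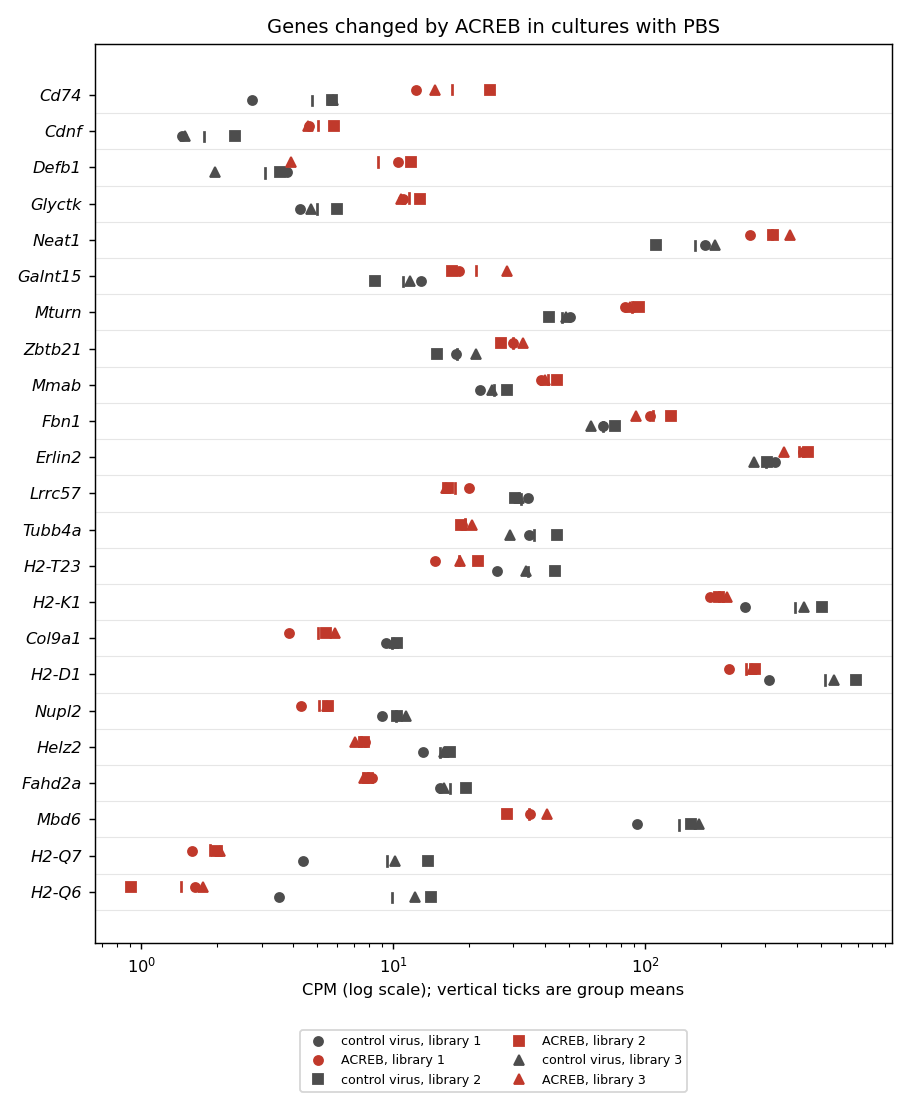
CPM (log scale) of 23 genes that passed and did not overlap between groups, in each of the 6 PBS libraries, with group means as vertical ticks and a symbol shape for each replicate number. Rises stand at the top, led by Cd74, and falls at the bottom, where Mbd6, H2-Q7 and H2-Q6 are farthest apart.

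The listed targets of CREB did not pass. Of 32 cAMP and CREB target genes tested, 0 rose and 0 fell, 15 had a positive and 17 a negative log2 fold change, and the median was -0.01 against 0.01 for all genes. At an unadjusted p under 0.05, 4 of the 32 were higher and 5 lower. Of all 16761 genes tested, 912 were higher and 899 lower at such a p, 10.8% together. Both DESeq2 and the fit with GC and length offsets called 2 rises, Crem and Fosb, where they called 1.51% and 1.68% of all genes. Of the 28 immediate-early genes tested, 0 rose and 0 fell, with a median of -0.01 and 5 at an unadjusted p under 0.05. Fos, an AP-1 subunit, was at 28.5, 40.6 and 31.5 CPM with control virus and 37.1, 53.3 and 50.1 with ACREB, with a log2 fold change of 0.48 (95% confidence interval 0.01 to 0.96, adjusted p = 0.46). The orphan nuclear receptors Nr4a1 and Nr4a2 had -0.53 (-0.95 to -0.11, adjusted p = 0.34) and -0.24 (-0.69 to 0.21, adjusted p = 0.67). Nr4a1 was at 17.9, 49.2 and 61.5 CPM against 17.9, 26.4 and 39.9, so pair 1 showed no difference and the other pairs a lower value with ACREB.

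Per1, a clock gene, had a log2 fold change of -0.32 (95% confidence interval -0.63 to -0.004, adjusted p = 0.46). Sik1, a kinase that feeds back on CREB coactivators, had 0.14 (-0.45 to 0.73, adjusted p = 0.85), and Ppargc1a, a coactivator of mitochondrial genes, had 0.13 (-0.29 to 0.55, adjusted p = 0.80). Ppp1r3c, which targets a phosphatase to glycogen, had -0.23 (-0.57 to 0.11, adjusted p = 0.61), and among 31 genes of glycogen metabolism 0 rose and 0 fell, with a median of 0.02 and 2 at an unadjusted p under 0.05. DESeq2, which called 1.51% of all genes in either direction, called 1 fall among them, Gaa, the lysosomal enzyme that degrades glycogen. Penk, proenkephalin, was the CREB target with the largest fold change, at -1.96 (adjusted p = 0.17), and was picked out after its value was seen.

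Relatives of CREB did not pass either. Of 17 genes of the CREB and ATF family, 0 rose and 0 fell, and the median was 0.02. Of the 17, 4 had an unadjusted p under 0.05, where 10.8% of all genes tested did. Crem, whose products include repressors of CREs, was at 27.5, 16.5 and 28.7 CPM with control virus and 39.4, 40.0 and 41.7 with ACREB. The groups were apart and the ACREB values close together, and the log2 fold change was 0.76 (95% confidence interval 0.37 to 1.16, adjusted p = 0.13). With the GC and length offsets Crem rose (0.69, adjusted p = 0.036), as did Creb1 (0.77, adjusted p = 0.0041), and DESeq2 called both. The fit with offsets called 1.68% of all genes, and DESeq2 1.51%. Atf1, the other close relative, had 0.30 (-0.05 to 0.66, adjusted p = 0.53). Among the 17 phosphodiesterases tested, which break down cyclic nucleotides, 0 rose and 0 fell, also with DESeq2, 1 had an unadjusted p under 0.05, and the median was 0.12.

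Genes of the interferon response lay lower with ACREB as a list, though 1 of them passed. Helz2, a helicase and nuclear coactivator induced by interferon, was at 13.1, 16.8 and 15.98 CPM with control virus and 7.69, 7.68 and 7.03 with ACREB. It fell by 1.04 on the log2 scale (SE 0.14, adjusted p = 0.019), and its groups were apart. Of the 36 interferon genes tested, Helz2 was the only fall and 0 rose; 34 had a negative fold change, 6 were apart with ACREB lower, and the median was -0.25. Over all genes tested, 0.137% fell and 4.44% were apart with ACREB lower. With the offsets, where 0.997% of all genes fell, 6 of the 36 fell: Helz2, Usp18, Irf7, Isg15, Rtp4 and Ifit1. The same 6 fell with DESeq2, which called 1.51% of all genes in either direction. Usp18, which removes ISG15 from proteins, had a log2 fold change of -0.76 (adjusted p = 0.068, or 0.008 with the offsets), and Irf7, a transcription factor of the response, had -0.92 (adjusted p = 0.10, or 0.031).

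Cell cycle genes lay slightly lower as well. Of 34 tested, 0 rose and 0 fell, 33 had a negative log2 fold change with a median of -0.22, and 13 were apart with ACREB lower, against 4.44% of all genes. Cdc20, the activator of the anaphase-promoting complex, had -0.47 (adjusted p = 0.14), Cdk1, the mitotic kinase, had -0.30 (adjusted p = 0.23) and Mki67, a proliferation marker, had -0.22 (adjusted p = 0.77). At an unadjusted p under 0.05, 14 were lower, where 899 of all 16761 genes tested were. With the offsets, where 0.997% of all genes fell, Cdc20, Cdc25c and Birc5 fell. DESeq2, which called 1.51% of all genes in either direction, called Cdc20. The direction of the list's median was the same in each pair, at -0.20, -0.23 and -0.24.

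Astrocyte markers showed no change that passed. Of 17 tested, 0 rose and 0 fell, 0 had an unadjusted p under 0.05, DESeq2 called 0, and the median was -0.08. Slc1a2, the main astrocyte glutamate transporter, had a log2 fold change of 0.22 (95% confidence interval -0.23 to 0.66, adjusted p = 0.70). Of 23 reactive astrocyte markers, H2-T23 and H2-D1 fell and 0 rose, with a median of -0.19, where 0.137% of all genes fell. At an unadjusted p under 0.05, 9 of the 23 were lower, where 899 of all 16761 genes tested were. DESeq2, which called 1.51% of all genes in either direction, called a further fall, Serpina3n. Oligodendrocyte lineage markers had a median of -0.26 over 18 genes and endothelial markers 0.46 over the 6 tested, with 0 passing in each. An unadjusted p under 0.05 was reached by 6 and 2 genes of these lists, and by 10.8% of all genes tested. DESeq2 called 0 of the first and 1 of the second, Flt1. The endothelial sum rested mostly on Slco1a4, at a mean of 215.1 CPM with control virus and 344.8 with ACREB, while Cldn5 was at 0 and Pecam1, Cdh5, Tie1, Emcn and Tek were under 1 CPM in all 6 libraries. The 13 ependymal markers tested had a median of 0.37, with 0 passing and 3 higher at an unadjusted p under 0.05. With DESeq2, and with the offsets, which called 1.68% of all genes, Rsph1 was the 1 of these markers called. Their median was 0.22 with the offsets, and 0.04, 0.34 and 0.29 in pairs 1, 2 and 3. All 14 listed ependymal markers summed to 522.9 ± 50.4 CPM with control virus and 520.8 ± 85.1 with ACREB (SD, n = 3).

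**Figure D4:**
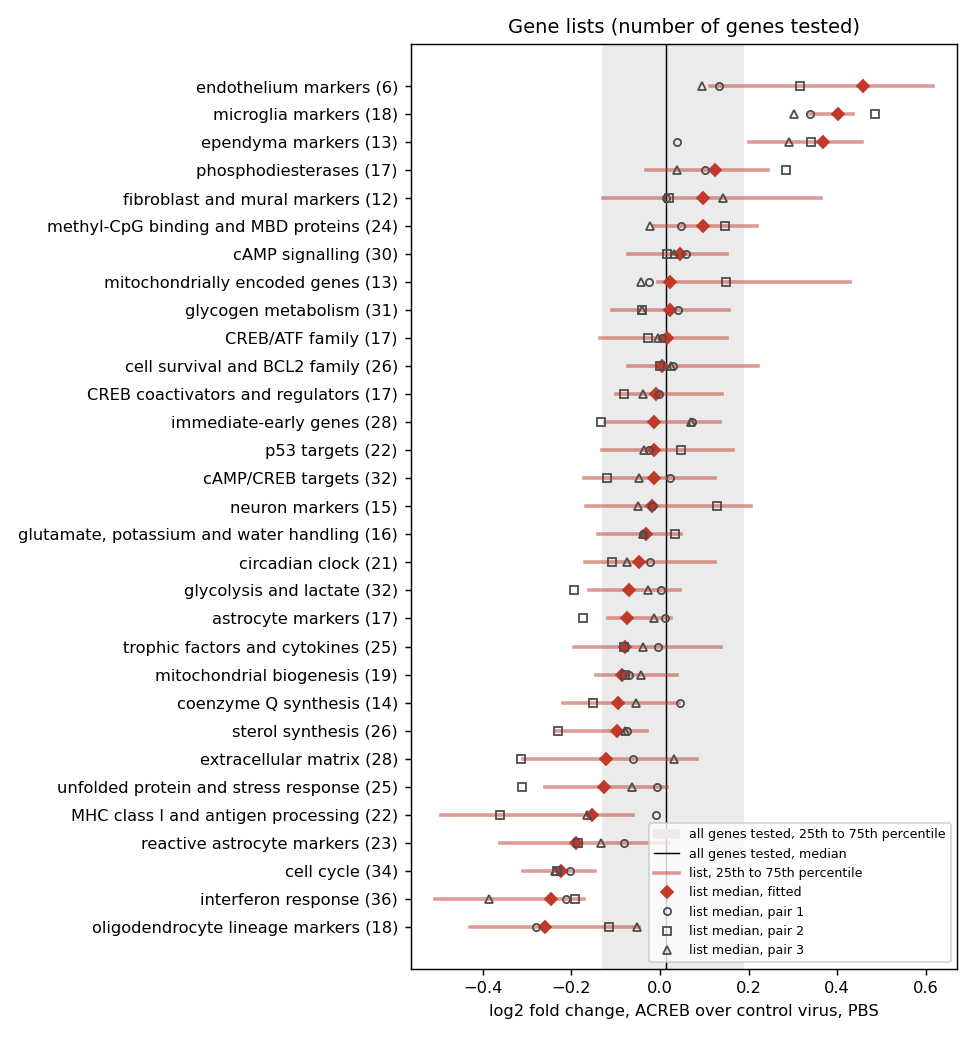
Median log2 fold change of ACREB over control virus in PBS for 31 gene lists, with the number of genes tested in brackets. Diamonds show the fitted median, bars the middle of the list from its 25th to its 75th percentile, open symbols the median in each pair, the grey band the same percentiles over all genes; microglial, endothelial and ependymal markers lie above the band, and oligodendrocyte, reactive astrocyte, interferon, cell cycle and MHC class I genes below it.

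The same virus contrast in the 6 VIP libraries shares no library with the contrast described here. All 37 genes had the same sign there, where 58.9% of all genes had the same sign in both. Of the 14 rises 8 passed with VIP, and of the 23 falls 15 passed, where 0.149% and 0.215% of all genes rose and fell. Both contrasts come from 1 fit that shares its estimate of spread, so passing with VIP is not independent of how the genes were picked. Mbd6 was at -1.83 on the log2 scale with VIP (-1.98 with PBS), Cd74 at 2.03 (1.85), H2-Q6 at -2.55 (-2.64) and Helz2 at -1.36 (-1.04). In the test of the difference between both contrasts, 0 genes passed in edgeR (smallest adjusted p = 0.94), with 461 at an unadjusted p under 0.05. With the GC and length offsets 0 passed as well, with 640 at such a p. By this test no gene could be called particular to cultures without VIP. No detection limit was measured for it, so it does not show that the effects are equal.

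Several CREB targets had a lower fold change with VIP than with PBS, short of the threshold for a difference. Nr4a2 had a log2 fold change of -0.24 with PBS and -1.46 with VIP (adjusted p = 0.0067), a difference of -1.22 (unadjusted p = 0.0007, adjusted p = 0.94). Nr4a1 had -0.53 and -1.29 (adjusted p = 0.025 with VIP), a difference of -0.76 (unadjusted p = 0.016, adjusted p = 0.94). Crem had 0.76 and -0.05, a difference of -0.82 (unadjusted p = 0.0077, adjusted p = 0.94). Ppargc1a, Sik1 and Ppp1r3c had differences of -0.84, -0.86 and -0.55 (unadjusted p = 0.0092, 0.041 and 0.027). Of the 37 genes, Glyctk and Ahnak2 had a difference with an unadjusted p under 0.05: Glyctk had 1.21 and 1.68, and Ahnak2 1.83 and 0.73.

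**Figure D5:**
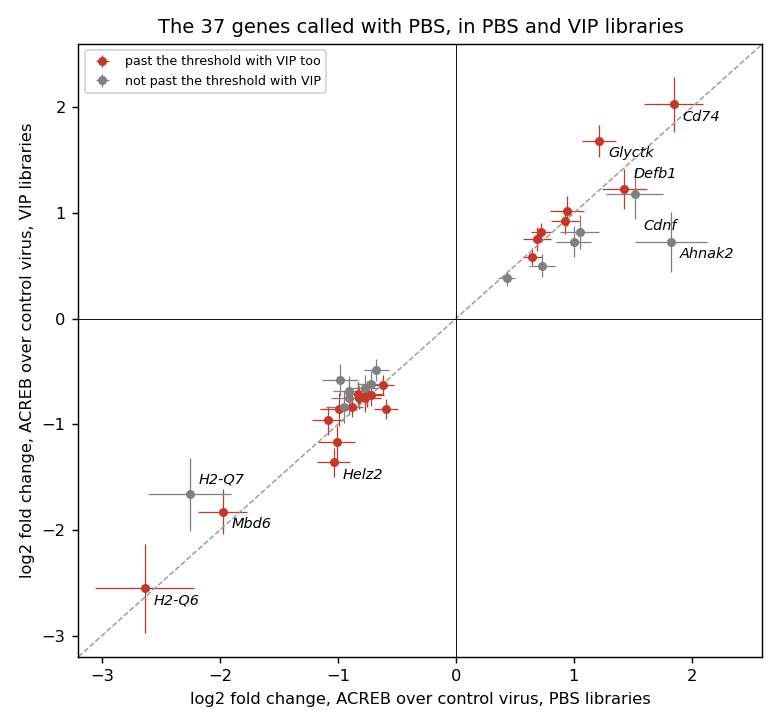
Log2 fold change of ACREB over control virus for the 37 genes that passed with PBS, in the PBS libraries (horizontal axis) and in the VIP libraries (vertical axis), with SE bars. All 37 points lie in the 2 quadrants of equal sign, with Ahnak2 and H2-Q7 off the dashed line of equality towards smaller changes with VIP, and the 23 coloured genes also passed with VIP.

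Promoter sequences were read for the genes tested, since ACREB acts on factors that bind CREs. RefSeq promoters (GRCm38.p6, from 250 bases before to 50 after the annotated start) were matched to 11838 of the 16761 genes and to 28 of the 37 that passed. The full CRE TGACGTCA, which reads the same on both strands, was in 3.47% of the 11838. It was in 4 of the 28: the falls Fahd2a and Nupl2 and the rises Mturn and Zbtb21. The stretches around these sites are shown because they are the full CREs of the changed genes, with the CRE in capitals.
Fahd2a (chr2:127444566-127444634, minus strand): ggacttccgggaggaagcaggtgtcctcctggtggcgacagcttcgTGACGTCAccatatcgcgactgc
Mturn upstream site (chr6:54681506-54681605, plus strand): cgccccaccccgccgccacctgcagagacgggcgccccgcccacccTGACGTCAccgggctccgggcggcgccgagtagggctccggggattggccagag
Mturn site near the start (chr6:54681564-54681623, plus strand): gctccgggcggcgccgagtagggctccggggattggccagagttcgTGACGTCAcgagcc
Nupl2 (chr5:24164980-24165009, plus strand): gcgcggggcgaTGACGTCAcactagccggg
Zbtb21 (chr16:97962604-97962633, minus strand): ctggtgtgggaTGACGTCAaattcaagatg

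The first base of the CRE is at -23 from the RefSeq start in Fahd2a, at -72 and -14 in Mturn, at 28 in Nupl2, and at the start itself in Zbtb21. The sites of Fahd2a and Mturn lie upstream of annotated exons, and those of Nupl2 and Zbtb21 lie in an exon. Genes with the full CRE had a median log2 fold change of 0.01 and genes without it of -0.001. Of the genes with it 0.973% passed, against 0.21% of those without, and with the GC and length offsets the shares were 5.35% and 1.58%. Among the falls, 2 of 19 promoters held the full CRE, 10.5% (exact 95% binomial interval 1.30% to 33.1%). In the larger sets called with the offsets it was in 10.4% of 125 promoters of falls (5.66% to 17.1%) and 11.7% of 77 promoters of rises (5.49% to 21.03%).

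A shorter motif, the CRE core TGACG on either strand, is part of every full CRE and was in 33.6% of all 11838 promoters. It was in 14 of the 19 promoters of genes that fell (73.7%, exact 95% binomial interval 48.8% to 90.9%) and in 4 of the 9 of genes that rose (44.4%, 13.7% to 78.8%). Those 14 include Coq2, Helz2, Lrrc57, Mecr, Tubb4a, H2-K1, H2-D1 and H2-Q7, and the 5 without it include Mbd6, H2-Q6 and H2-T23. The intervals for the core and the full CRE treat genes as independent, which related H2 genes are not. They describe genes picked from these same data and are no test of enrichment. Among the larger sets called with the GC and length offsets, the core was in 62.4% of 125 promoters of falls and 37.7% of 77 promoters of rises. Median log2 fold change was -0.02 with the core and 0.01 without it over all genes. Promoters of the genes that fell had a median GC content of 58.0% against 60.7% for all. With promoters split into 3 classes of rising GC content, the share of genes that passed was 0.265%, 0.81% and 0.219% with the core and 0.139%, 0.2% and 0.0404% without it. A match describes letters in this window and is not a binding site.

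The position of the changed genes was looked at after the calls were known. In the stretch of chromosome 17 from 35 to 40 Mb, 4 of 74 genes tested passed, all of them H2 genes described above. Of those 74 genes, 11 are H2 genes, so this count restates the H2 falls. On chromosome 2 from 125 to 130 Mb, 3 of 61 genes tested passed, with 0 H2 genes among the 61. Over all genes tested 0.221% passed.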

How the data were processed

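The deposited table holds the authors' raw counts for each Ensembl gene and library, with no normalization, and 0 entries name no gene. Strand-specific polyA libraries were read as 150 bp pairs, per the labels' protocols. The submitters' processing notes name the build GRCm38 (mm10), HTSeq 0.11.2, STAR 2.7.1a, Trimmomatic 0.39, edgeR and R 3.6.1. The strand setting of HTSeq and the annotation release were not given in the sources used here.

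The analysis used edgeR 4.0.16 (filterByExpr, TMM, quasi-likelihood test) and DESeq2 1.42.0 in R 4.3.3. A mean per group and a block for the replicate number were fitted to all 12 libraries, so that the groups share 1 estimate of spread (6 residual degrees of freedom), with Benjamini-Hochberg adjustment over all 16761 genes. The scripts were tested on simulated counts. CPM were scaled by TMM. SEs were derived from the log2 fold change and the F statistic. Positions were taken from GENCODE on GRCm38, and promoters from RefSeq (GRCm38.p6).

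Replicate numbers were taken to pair the libraries: deviations from group means correlated at 0.69, 0.83 and 0.72 in the 3 pairs compared, and 12 of 12 libraries correlated best with one of their own number. Over all 18 pairs of equal number in the 12 libraries, the correlation ran from 0.086 to 0.83. It was lowest between the control virus libraries 3 with VIP and with PBS. The rule for named genes took the 12 largest rises and 12 largest falls that passed, did not overlap and reached a mean of 2 CPM in the group with more, without predicted symbols, then up to 4 passing members of each of 31 lists, and a set always named. Other genes that passed, and Penk, were added after their values were seen. A gene that passed is not reported here. The members and lists were chosen with earlier results of these data known. Alternatives were other scaling, filters, tools, GC and length offsets, no block, and leaving out libraries; leaving out libraries with the offsets, and the stretches of chromosomes, were added after seeing the data.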

Additional observations from a re-analysis of the deposited data

How the results depend on the processing

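The log2 fold changes of the 37 genes kept their direction in each alternative run on these same libraries, while the number that passed did not hold. Genes that rose and fell numbered 14 and 23 in the paired fit, 1 and 5 with no replicate block, 15 and 20 with DESeq2's size factors, 106 and 147 with DESeq2, 76 and 79 with no filter on low counts, 11 and 14 with the 6 PBS libraries alone, and 114 and 167 with GC and length offsets. With 1 library left out the rises ranged from 0 to 24 and the falls from 0 to 35, and with all libraries of 1 replicate number left out from 0 to 22 and from 0 to 18. With the offsets as well, leaving out control library 1, 2 or 3 gave 30 and 66, 69 and 116, or 70 and 115. Leaving out ACREB library 1, 2 or 3 gave 22 and 40, 11 and 16, or 26 and 33. Without replicate 2 the offsets gave 69 and 86, and with no replicate block 7 and 16. The cause of these differences was not tested. The share of falls with a CRE was 10.5% for the full motif, 73.7% for its core TGACG and 5.26% for the full motif in the bases before the start alone.

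Log2 fold changes turned in 4 genes that did not pass. With libraries left out, Sik1 ranged from -0.161 to 0.480, Ppargc1a from -0.109 to 0.3004 and Nr4a2 from -0.508 to 0.0431. The turns were at -0.161 for Sik1 without control library 1, at -0.109 and -0.0177 for Ppargc1a without control library 2 and without replicate 2, and at 0.0431 and 0.0163 for Nr4a2 without control library 3 and without replicate 3. With the offsets the same genes turned to -0.0766 for Sik1, -0.0529 and -0.0369 for Ppargc1a and 0.0186 for Nr4a2, and Slc1a2 turned to -0.0342 and -0.0726 without ACREB library 1 or 3. No detection limit was measured for these 3 libraries a group.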

Other observations

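Other genes missed the threshold in the paired fit and passed with GC and length offsets, and the examples here were picked after their values were seen. Gpnmb, a membrane glycoprotein of phagocytes and pigment cells, was at 28.7, 111.0 and 46.4 CPM with control virus and 17.2, 28.4 and 13.6 with ACREB, with a log2 fold change of -1.49 (adjusted p = 0.065, or 0.016 with the offsets). Npy, neuropeptide Y, was at 2.44, 1.72 and 0.849 CPM against 4.69, 6.11 and 3.16, a log2 fold change of 1.51 (adjusted p = 0.051, or 0.017). Sucnr1, the succinate receptor, had a log2 fold change of 0.90 (adjusted p = 0.097, or 0.020).

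The other picked examples are 2 matrix genes and 2 mitochondrial ribosome genes. Of 28 listed extracellular matrix genes tested, 3 fell and 0 rose with the offsets, where 0.997% of all genes fell. The list's median in the paired fit was -0.12, and the matrix gene Fbn1 rose. Mitochondrial ribosome genes were not taken as a list. Acan, the proteoglycan aggrecan, was at 2.702, 5.404 and 4.03 CPM with control virus and 1.53, 1.57 and 1.70 with ACREB, a log2 fold change of -1.30 (adjusted p = 0.053, or 0.017 with the offsets). Fbln2, fibulin-2, had -1.09 (adjusted p = 0.064, or 0.019). Mrpl4 and Mrpl55, subunits of the mitochondrial ribosome, had -0.81 (adjusted p = 0.060, or 0.0046) and -0.66 (adjusted p = 0.053, or 0.0074). These 7 genes had the same sign in the VIP libraries, at -1.35 for Gpnmb, 1.74 for Npy, 1.08 for Sucnr1, -0.73 for Acan, -0.94 for Fbln2, -0.59 for Mrpl4 and -0.37 for Mrpl55. So did 278 of the 281 genes called with the offsets, and the 7 are a pick, so their agreement is no separate support.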
